A study of Mus musculus with 9 samples.

Results

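The 10 mouse genes described here were selected on levels that separated a strain from the others in labial mucosa: Nnt, Wdfy1, Atp5e, Tmem254b, Tmem254c, Crispld2, Raver2, Akr1c14, Mgst2 and Gm7658. They are 10 of the 55342 gene names in the deposited files, and all 10 were among the 16523 genes that passed the expression filter. They were chosen by their counts, scaled to a common library size, in these same 9 libraries. Their values and the differences between strains are therefore given as a description without a test, and tests are kept for genes that the choice did not use. The lists of related genes among these were written with earlier results of these data known, so they were not fixed beforehand.

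The libraries were made from polyadenylated RNA of labial mucosa biopsies and fall into strains labelled Tac111 (3 libraries, replicates 1, 2 and 3), Tac146 (3 libraries, replicates 2, 3 and 4) and B6 (3 libraries, replicates 1, 2 and 3). All mice were infected before biopsy per the labels, and the sources used here do not give the agent, the alleles or the age of the mice. T cells are named as the cells of Tac111 and Tac146, and type 1 innate lymphoid cells (ILC1) as those of B6, so that strain and labelled cell type cannot be told apart in either comparison with B6. No label ties the libraries of a strain to separate animals, and p-values then reflect only how far these samples spread, which can be technical. Total expected counts ran from 27192359 to 46456500 per library.

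Both labelled cell types were a small part of what was sequenced. The 18 T cell markers took 0.00422 to 0.0053% of the counts in Tac111, 0.00575 to 0.00694% in Tac146 and 0.0066 to 0.007% in B6, and 5 of them had no count in any Tac111 library. The 16 ILC1 and natural killer cell markers took 0.000653 to 0.000942% in Tac111, 0.00274 to 0.00324% in Tac146 and 0.00254 to 0.00296% in B6. Of these 16, 9 had no count in any Tac111 library, beside 0 in Tac146 and 0 in B6. The 9 markers of upper oral keratinocytes took 6.44 to 7.34% in Tac111, 7.12 to 9.46% in Tac146 and 6.34 to 10.3% in B6. In bulk tissue, fewer cells of a type and less RNA per cell cannot be told apart. The 4 Y-linked genes looked at had no count in any library.

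Inbred mouse strains are fixed for the same allele in every animal, so a variant that alters the RNA of a gene is present in all of them. The best known case among these genes is Nnt, of which C57BL/6J mice carry a deletion that C57BL/6N mice do not have. Near-identical copies, nested gene models and processed pseudogenes also shape such levels, because reads that fit several models are divided between them by the estimation step.

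The 10 genes followed 4 patterns across the strains. Nnt, Wdfy1 and Atp5e were low in Tac146. Tmem254b, Tmem254c and Crispld2 were high in Tac146 and low in Tac111, with B6 between them. Raver2 and Akr1c14 were high in Tac111, and Mgst2 and Gm7658 were low in B6. In Tac111 against B6, 4 genes lay above and 4 below without overlap of the libraries, beside 13.7% of all tested genes above, 15.9% below and 29.6% in either direction. In Tac146 against B6, 6 lay above and 3 below (6.35%, 6.29% and 12.6% of all tested genes), and in Tac111 against Tac146, 5 lay above and 3 below (17.1%, 18.4% and 35.4%). These counts follow from the way the genes were chosen.

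**Figure D1:**
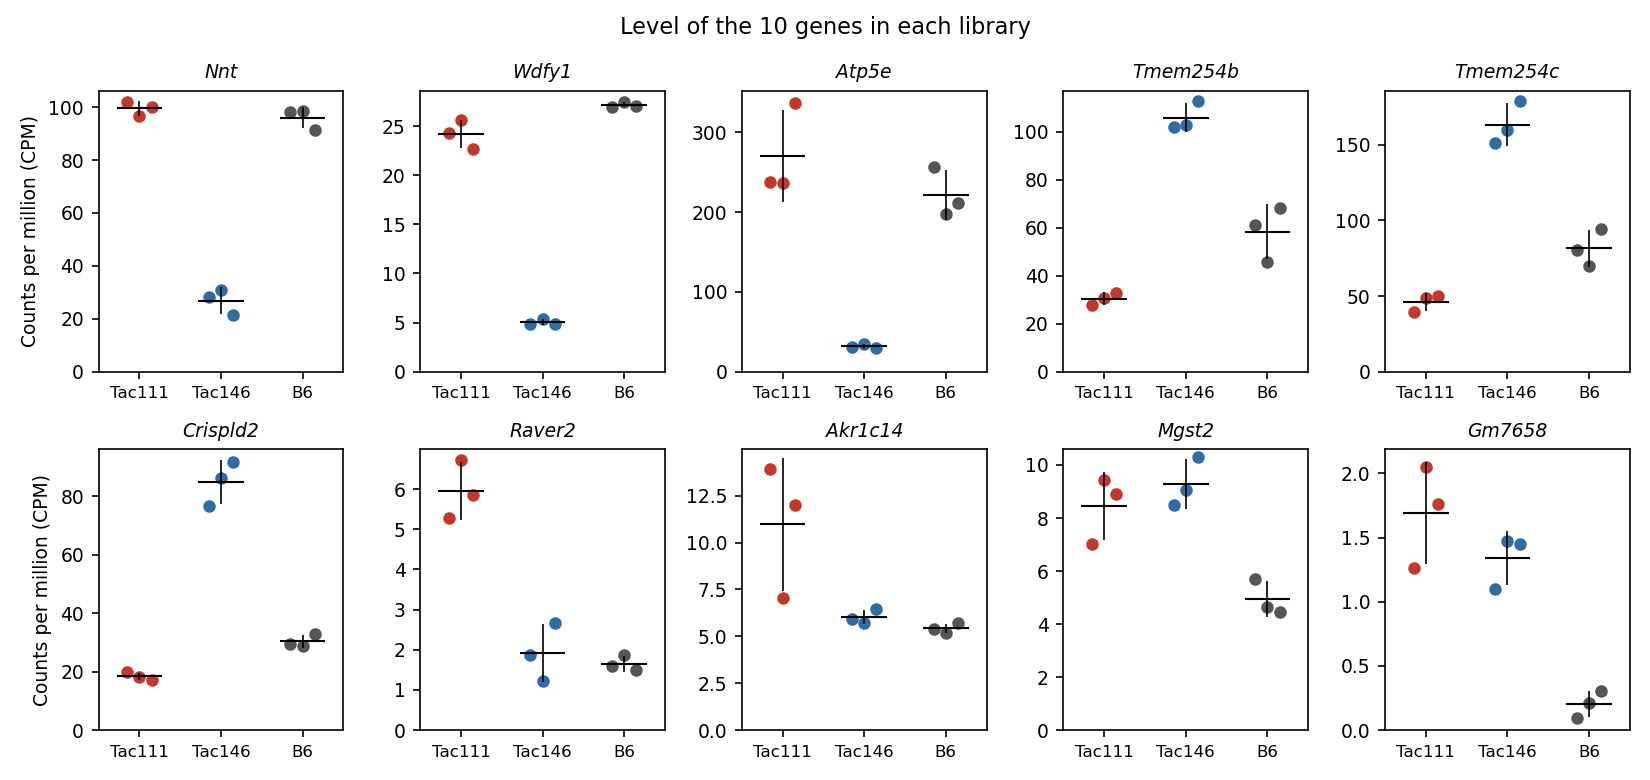
Level of each gene in CPM (vertical axis from 0) in the 3 libraries of Tac111, Tac146 and B6. Points are libraries, the horizontal line is the mean and the vertical line the SD (n = 3); the 3 Tac146 libraries sit below all others for Nnt, Wdfy1 and Atp5e and above all others for Tmem254b, Tmem254c and Crispld2.

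Levels were not equally tight within strains. CPM are counts per library size, the sizes being scaled by TMM factors. The SD of log2(CPM + 0.5) within strains was 0.069 for Wdfy1, and 6.2% of all tested genes were tighter than that. It was 0.111 for Crispld2 (24.2% of tested genes tighter) and 0.167 for Nnt (51.7% tighter), against a median of 0.164 over all tested genes. Raver2 at 0.279 and Akr1c14 at 0.29 were among the more variable genes, with 85.4% and 87.1% of tested genes tighter. The SD was 0.175 for Mgst2, 0.181 for Tmem254c, 0.191 for Tmem254b, 0.219 for Atp5e and 0.223 for Gm7658. These too were above the median of 0.164, and Nnt was close to it. The description of the whole set as tight therefore holds for Wdfy1 and Crispld2 only.

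Nnt encodes nicotinamide nucleotide transhydrogenase, an inner mitochondrial membrane enzyme that uses the proton gradient to make NADPH for the glutathione and thioredoxin systems. It lies on the minus strand at chr13:119335448-119408997 (GRCm38, GENCODE). Nnt stood at 102, 96.6 and 100 CPM in Tac111, at 28.4, 31.0 and 21.3 CPM in Tac146 and at 98.1, 98.7 and 91.4 CPM in B6. The Tac146 libraries were apart from the other 6, whereas the Tac111 and B6 libraries overlapped. The log2 difference was -1.83 (SE 0.17) for Tac146 against B6, 1.88 (SE 0.16) for Tac111 against Tac146 and 0.05 (SE 0.04) for Tac111 against B6. The mean in Tac146, 26.9 ± 5.07 CPM, was 0.28 times the 96.1 ± 4.07 CPM of B6 (SD, n = 3 each).

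Nnt stands on 2 lines of every file, and the annotation holds 2 nested models of it that share 3339 bases without a difference, so the lines were summed. The second line held 6.48, 28.4 and 37.7% of the sum in the Tac111 libraries, 31.8, 31.6 and 23.7% in Tac146, and 29.7, 0.0 and 0.000363% in B6. Within Tac111 and within B6, this division varied between libraries far more than the sum did. Within Tac146 it did not, the SD of the sum there being 18.9% of its mean. With the first line alone, the log2 difference was -2.15 for Tac146 against B6 and -0.2 for Tac111 against B6. GRCm38 was assembled from C57BL/6J, so exons absent from that substrain are not in these models, and reads from them could not be counted to Nnt. No library had Nnt at 0.

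Of 13 other genes of mitochondrial NADPH supply and peroxide defence, none was called in Tac111 against B6 or in Tac146 against B6 (edgeR quasi-likelihood test, Benjamini-Hochberg adjusted p under 0.05; 3.81% and 0.303% of all tested genes were called). At p under 0.05 unadjusted there were 2 in Tac111 against B6 and 0 in Tac146 against B6, and DESeq2 called 0 in both. In Tac111 against Tac146, 1 was called (background 8.89%). This was Txnrd2, the mitochondrial thioredoxin reductase, at 10.8 ± 1.03 CPM in Tac111 and 7.42 ± 1.08 CPM in Tac146 (log2 fold change 0.55, edgeR adjusted p = 0.0313), a call that was lost in 7 of 15 alternatives. Sod2, Prdx3 and Idh2 passed in no comparison. The skeletal muscle markers, from a tissue rich in mitochondria, took 3.58 to 3.89% of counts in Tac111, 2.14 to 3.37% in Tac146 and 3.51 to 4.15% in B6, and their part in the Nnt levels was not tested.

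Wdfy1 encodes a protein with a FYVE domain and WD40 repeats that sits on early endosomes and has been described as an adaptor that brings TRIF to the receptors TLR3 and TLR4. The gene lies on the minus strand at chr1:79702262-79776143. Wdfy1 stood at 24.3, 25.6 and 22.7 CPM in Tac111, at 4.87, 5.37 and 4.81 CPM in Tac146 and at 27.0, 27.5 and 27.1 CPM in B6. All 3 Tac146 libraries were low, and the Tac111 libraries lay just below those of B6 without overlap. The log2 difference was -2.33 (SE 0.05) for Tac146 against B6, 2.16 (SE 0.07) for Tac111 against Tac146 and -0.17 (SE 0.05) for Tac111 against B6. The spread between the Tac146 libraries, 6.23% of their mean, was about that of counting alone (7.0%).

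None of the 10 other listed genes of the FYVE and TLR3 and TLR4 adaptor group was called in Tac146 against B6 (0.303% of all tested genes were). There were 0 at p under 0.05 unadjusted by edgeR and 0 by DESeq2. Ticam1, which encodes TRIF, stood at 10.1, 11.9 and 10.7 CPM as means of Tac111, Tac146 and B6. In Tac111 against Tac146, 1 of these 10 genes rose and 2 fell (30.0% called, beside 8.89% of all tested genes). Wdfy4, a dendritic cell protein needed for cross-presentation, averaged 2.27 ± 0.50 CPM in Tac111 and 4.45 ± 0.176 CPM in Tac146 (log2 fold change -0.97, edgeR adjusted p = 0.0157). It was also lower in Tac111 than in B6, at 4.43 ± 0.743 CPM (log2 fold change -0.95, edgeR adjusted p = 0.0204). Wdfy3, a large scaffold of selective autophagy, fell by 0.7 on the log2 scale in Tac111 against Tac146 (edgeR adjusted p = 0.0167), and Irf3, the interferon regulator downstream of TRIF, rose by 0.34 (edgeR adjusted p = 0.0456). With 1 library left out at a time, the Wdfy4 calls were lost without Tac111 replicate 2 or 3, and the one against B6 also without B6 replicate 2 or 3. The Wdfy3 call was lost without Tac111 replicate 2 or 3 or Tac146 replicate 3, and that of Irf3 in 11 of 15 alternatives.

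Atp5e encodes the epsilon subunit of ATP synthase, a small protein of the central stalk of the enzyme that makes ATP from the mitochondrial proton gradient. It lies on the minus strand at chr2:174461072-174464105. Atp5e stood at 238, 236 and 337 CPM in Tac111, at 30.9, 35.3 and 29.4 CPM in Tac146 and at 257, 197 and 211 CPM in B6. Every Tac146 library was far below the other 6, and Tac111 and B6 overlapped. This was the widest difference among the 10 genes, with a log2 difference of -2.78 (SE 0.14) for Tac146 against B6, 3.05 (SE 0.19) for Tac111 against Tac146 and 0.27 (SE 0.2) for Tac111 against B6. The Tac146 mean was 0.144 times the B6 mean.

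The other nuclear-encoded subunits did not share this level. Their geometric mean over 14 genes was 388 ± 59.2 CPM in Tac111, 291 ± 30.9 CPM in Tac146 and 328 ± 29.4 CPM in B6 (SD, n = 3 each). Atp5e amounted to 67.14, 66.97 and 73.92% of it in the Tac111 libraries, to 10.04, 11.4 and 11.52% in the Tac146 libraries and to 71.33, 64.96 and 65.88% in the B6 libraries. Measured this way, the high Atp5e value of Tac111 replicate 3 lay close to the others of its strain, since the other subunits were high in that library as well. For Tac146 against B6, the log2 fold changes of the 14 subunits ran from -0.25 to -0.11, all below 0.

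The ATP synthase list includes assembly factors and the mitochondrially encoded subunits. Of its 21 other tested genes, none was called in Tac146 against B6 by edgeR (0.303% of all tested genes were). There were 0 at p under 0.05 unadjusted and 0 by DESeq2. None was called in Tac111 against B6 either (background 3.81%), with 6 at p under 0.05 unadjusted and 0 by DESeq2. In Tac111 against Tac146, 2 rose (9.52%, beside 8.89% of all tested genes), and DESeq2 called 16 of the 21, beside 16.2% of all tested genes. They were Atp5h, a subunit of the peripheral stalk, with a log2 fold change of 0.52 (edgeR adjusted p = 0.0499), and Atp5k, a membrane subunit, with 0.57 (edgeR adjusted p = 0.0495). Each of these calls was lost in 11 of 15 alternatives. The list's median log2 fold change was 0.21 for Tac111 against B6, -0.15 for Tac146 against B6 and 0.36 for Tac111 against Tac146, beside 0.02, 0.01 and 0.02 over all tested genes.

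**Figure D2:**
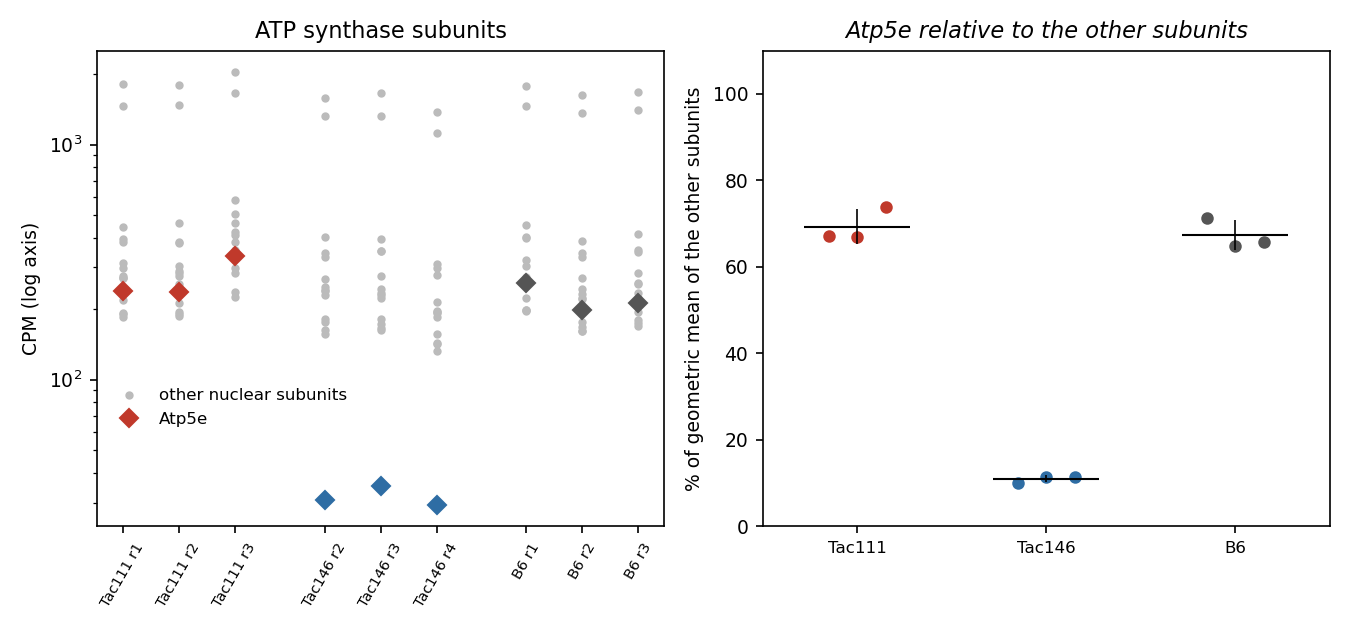
Left, CPM (log axis) of Atp5e (diamonds) and of 14 other nuclear-encoded ATP synthase subunits (grey points) in each library. Right, Atp5e as a percentage of the geometric mean of those subunits in the same library, with the mean and SD (n = 3); Tac111 averaged 69.35%, Tac146 10.99% and B6 67.39%.

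Tmem254b and Tmem254c encode copies of a small membrane protein whose function is little known. They lie on the minus strand of chromosome 14 in a cluster with another copy, Tmem254a, at chr14:26203369-26207041 for Tmem254b, chr14:26063919-26067355 for Tmem254c and chr14:25923300-25927672 for Tmem254a. The transcripts of the copies were identical over 1211 to 1447 aligned bases, and the 3 windows upstream of the start shared 234 bases without a difference. A stretch of 120 bases from those windows (RefSeq, GRCm38.p6, minus strand) shows how alike the copies are, and reads from the identical parts of their transcripts could not be assigned to a copy. The coordinates are chr14:26207042-26207161, chr14:26067426-26067545 and chr14:25927673-25927792.

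Tmem254b: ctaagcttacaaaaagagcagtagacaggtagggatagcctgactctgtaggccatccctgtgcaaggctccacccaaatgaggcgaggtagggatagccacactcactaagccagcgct
Tmem254c: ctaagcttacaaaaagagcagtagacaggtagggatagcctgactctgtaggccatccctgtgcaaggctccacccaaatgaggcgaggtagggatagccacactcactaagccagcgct
Tmem254a: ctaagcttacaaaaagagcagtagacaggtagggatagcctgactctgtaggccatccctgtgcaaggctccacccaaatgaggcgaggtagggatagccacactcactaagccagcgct

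Tmem254b stood at 27.7, 30.9 and 32.9 CPM in Tac111, at 102, 103 and 113 CPM in Tac146 and at 61.0, 45.7 and 68.2 CPM in B6. Tmem254c stood at 39.2, 48.8 and 49.9 CPM in Tac111, at 151, 160 and 179 CPM in Tac146 and at 80.6, 69.7 and 94.2 CPM in B6. For both, the 3 strains formed separate ranges, with Tac146 highest and Tac111 lowest. Tmem254c took 53.6 to 57.7% of the summed counts of the 3 copies in every library. Because the division between copies is an estimate, the sum is the firmer value. It averaged 81.2 ± 8.67 CPM in Tac111, 287 ± 21.6 CPM in Tac146 and 151 ± 22.9 CPM in B6 (SD, n = 3 each). The log2 difference of the sum was -0.88 (SE 0.16) for Tac111 against B6, 0.94 (SE 0.14) for Tac146 against B6 and -1.82 (SE 0.11) for Tac111 against Tac146.

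Tmem254a, which was not among the 10 genes but shares their reads, averaged 4.7 ± 0.289 CPM in Tac111, 17.2 ± 0.744 CPM in Tac146 and 10.7 ± 1.71 CPM in B6. It was lower in Tac111 than in B6 (log2 fold change -1.18, edgeR adjusted p = 0.000825) and than in Tac146 (log2 fold change -1.87, edgeR adjusted p = 3.17e-05). In Tac146 against B6 its log2 fold change of 0.68 did not pass by edgeR (adjusted p = 0.0649), although the libraries of the strains did not overlap. It is no independent evidence for the other copies.

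Crispld2 encodes a secreted protein of the CAP superfamily, known in human as a protein that binds bacterial lipopolysaccharide. It lies on the plus strand at chr8:119992438-120052793. Crispld2 stood at 19.8, 18.1 and 17.2 CPM in Tac111, at 76.6, 86.2 and 91.5 CPM in Tac146 and at 29.5, 28.8 and 32.9 CPM in B6. The strains formed separate ranges in the same order as for the Tmem254 copies. The log2 difference was -0.71 (SE 0.08) for Tac111 against B6, 1.46 (SE 0.09) for Tac146 against B6 and -2.17 (SE 0.09) for Tac111 against Tac146. A further model, Gm20388, covers the whole of Crispld2 on the same strand and was at 52.3 ± 2.68 CPM in Tac111, 44.8 ± 1.52 CPM in Tac146 and 48.6 ± 4.35 CPM in B6. Summed with it, the log2 difference of Crispld2 was -0.16 for Tac111 against B6, 0.71 for Tac146 against B6 and -0.87 for Tac111 against Tac146. The lower coordinates of Gm20388 and of the gene Usp10 lie at -81.6 and -82.1 kb from that of Crispld2. Whether Gm20388 also takes reads of Usp10 was not tested, so the sum is not a value of Crispld2 alone.

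Among 7 other tested genes of the CAP superfamily, none was called in Tac146 against B6 by edgeR (0.303% of all tested genes were). There was 1 at p under 0.05 unadjusted and 0 by DESeq2. In Tac111 against B6, 1 fell (14.3%, beside 3.81% of all tested genes). In Tac111 against Tac146, 1 rose and 1 fell (28.6%, beside 8.89%). Glipr1, a CAP protein of myeloid cells, averaged 0.325 ± 0.0706 CPM in Tac111, 1.19 ± 0.276 CPM in Tac146 and 1.2 ± 0.106 CPM in B6. It was lower in Tac111 than in B6 (log2 fold change -1.89, edgeR adjusted p = 0.00531) and than in Tac146 (log2 fold change -1.86, edgeR adjusted p = 0.00431). Pi16, a CAP protein of fibroblasts, rose by 0.57 on the log2 scale in Tac111 against Tac146 (edgeR adjusted p = 0.0471), a call lost in 10 of 15 alternatives. The 6 pan-leukocyte markers, which take in the cells where Glipr1 is known, took 0.0043 to 0.0044% of counts in Tac111, 0.00658 to 0.0102% in Tac146 and 0.00822 to 0.00867% in B6. Their part in the levels of Glipr1 and Crispld2 was not tested.

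Raver2 encodes an RNA-binding protein that partners the splicing repressor PTB. It lies on the plus strand at chr4:101068983-101152370. Raver2 stood at 5.29, 6.72 and 5.84 CPM in Tac111, at 1.86, 1.23 and 2.67 CPM in Tac146 and at 1.60, 1.88 and 1.49 CPM in B6. All Tac111 libraries lay above the other 6, and Tac146 and B6 overlapped. The log2 difference was 1.58 (SE 0.12) for Tac111 against B6, 1.45 (SE 0.27) for Tac111 against Tac146 and 0.13 (SE 0.26) for Tac146 against B6. Of 5 listed splicing partners and relatives, 1 was called in Tac111 against B6 (20.0%, beside 3.81% of all tested genes). This was Ptbp2, the neuronal PTB, which rose (log2 fold change 0.44, edgeR adjusted p = 0.0448), a call lost in 9 of 15 alternatives. None of the 5 was called by edgeR in Tac146 against B6 (background 0.303%) or in Tac111 against Tac146 (background 8.89%). In Tac146 against B6 there were 0 at p under 0.05 unadjusted and 0 by DESeq2, and in Tac111 against Tac146 2 and 1.

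Akr1c14 encodes a 3-alpha-hydroxysteroid dehydrogenase of the aldo-keto reductase family, in a cluster of related genes on chromosome 13. It lies on the plus strand at chr13:4049011-4090688. Akr1c14 stood at 13.9, 7.04 and 12.0 CPM in Tac111, at 5.91, 5.71 and 6.44 CPM in Tac146 and at 5.39, 5.18 and 5.70 CPM in B6. The Tac111 libraries were highest and also the most scattered, and Tac111 replicate 2 lay close to the top of Tac146. Tac146 exceeded B6 without overlap, though by a log2 difference of only 0.14 (SE 0.06). The log2 difference was 0.9 (SE 0.29) for Tac111 against B6 and 0.77 (SE 0.29) for Tac111 against Tac146. They were 1.18 and 1.05 without Tac111 replicate 2, and 0.72 and 0.58 without Tac111 replicate 1.

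Akr1c18, the neighbouring 20-alpha-hydroxysteroid dehydrogenase that inactivates progesterone, averaged 28 ± 5.68 CPM in Tac111, 11.9 ± 2.28 CPM in Tac146 and 13.8 ± 5.53 CPM in B6. It rose in Tac111 against Tac146 (log2 fold change 1.23, edgeR adjusted p = 0.0268) (with 1 library left out at a time, the call was lost without Tac111 replicate 2 or 3 or Tac146 replicate 3). In Tac111 against B6 its log2 fold change of 1.01 did not pass (edgeR adjusted p = 0.0733). The summed Akr1c genes of the list stood at 59.1 ± 7.05 CPM in Tac111, 36.4 ± 2.06 CPM in Tac146 and 37.5 ± 4.87 CPM in B6. Gm18857, a pseudogene that shares 234 bases with Akr1c14 without a difference, had no count in any library.

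Mgst2 encodes microsomal glutathione S-transferase 2, a membrane enzyme of the MAPEG family that conjugates glutathione and can make leukotriene C4. It lies on the plus strand at chr3:51660360-51682677. Mgst2 stood at 7.02, 9.43 and 8.90 CPM in Tac111, at 8.49, 9.06 and 10.3 CPM in Tac146 and at 5.71, 4.63 and 4.47 CPM in B6. All B6 libraries lay below the other 6, and Tac111 and Tac146 overlapped. The log2 difference was 0.72 (SE 0.16) for Tac111 against B6, 0.85 (SE 0.13) for Tac146 against B6 and -0.13 (SE 0.14) for Tac111 against Tac146.

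Of 7 other genes of the MAPEG family and of leukotriene synthesis, none was called in Tac146 against B6 by edgeR (0.303% of all tested genes were). There was 1 at p under 0.05 unadjusted and 0 by DESeq2. In Tac111 against B6, 1 fell (14.3%, beside 3.81% of all tested genes), and in Tac111 against Tac146, 2 fell (28.6%, beside 8.89%). Alox5, the leukocyte enzyme that starts leukotriene synthesis, averaged 3.34 ± 0.363 CPM in Tac111, 6.81 ± 0.601 CPM in Tac146 and 6.35 ± 1.05 CPM in B6. It fell in Tac111 against Tac146 (log2 fold change -1.02, edgeR adjusted p = 0.00445) and against B6 (log2 fold change -0.93, edgeR adjusted p = 0.00993), the call against B6 being lost without Tac111 replicate 2. Ptges, a prostaglandin E synthase, fell by 0.71 on the log2 scale in Tac111 against Tac146 (edgeR adjusted p = 0.0456), and this call was lost in 8 of 15 alternatives. Mgst2 and Alox5 thus differed in which strain was low.

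Gm7658 is annotated as a processed pseudogene of 1124 bases on the minus strand at chr1:21511933-21513056, inside Kcnq5 and on the same strand as it. Its transcript matched that of Eif3m, a subunit of the translation initiation factor eIF3 encoded at chr2:104999656-105017080, with 98.5% identity. Of 1124 aligned bases, 16 differed (1.42%). A stretch of 150 bases shows how few letters separate the pair, with differing bases in capitals (GRCm38, 5′ to 3′). For Gm7658 it is chr1:21512542-21512691, and for Eif3m it is coding sequence spliced over 2 exons within chr2:105012868-105013269.

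Gm7658: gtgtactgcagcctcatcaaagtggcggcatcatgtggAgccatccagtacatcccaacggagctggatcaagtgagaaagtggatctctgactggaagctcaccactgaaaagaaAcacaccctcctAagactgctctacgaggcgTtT
Eif3m: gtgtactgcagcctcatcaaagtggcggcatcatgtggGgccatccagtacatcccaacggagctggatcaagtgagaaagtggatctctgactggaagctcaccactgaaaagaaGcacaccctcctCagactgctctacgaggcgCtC

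Gm7658 stood at 1.26, 2.05 and 1.76 CPM in Tac111, at 1.10, 1.47 and 1.45 CPM in Tac146 and at 0.0972, 0.213 and 0.303 CPM in B6. These levels rest on few reads, with expected counts of 39.45, 56.84 and 60.59 in Tac111, of 49.65, 47.94 and 65.95 in Tac146 and of 4.07, 6.11 and 9.15 in B6. All B6 libraries were low, and Tac111 and Tac146 overlapped. The ratio of means was 8.29 for Tac111 to B6 and 6.57 for Tac146 to B6. On the scale of log2(CPM + 0.5), which understates changes of low genes, the difference was 1.63 (SE 0.2) for Tac111 against B6 and 1.39 (SE 0.16) for Tac146 against B6.

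Eif3m itself averaged 123 ± 15.7 CPM in Tac111, 108 ± 3.26 CPM in Tac146 and 110 ± 4.28 CPM in B6, and its libraries overlapped in all 3 comparisons. Gm7658 made up 1.13, 1.73 and 1.24% of the summed pair in Tac111, 1.01, 1.30 and 1.36% in Tac146 and 0.085, 0.201 and 0.273% in B6. With the pair summed, the log2 difference was 0.16 for Tac111 against B6 and -0.01 for Tac146 against B6. Kcnq5, whose model encloses Gm7658, averaged 14.3 ± 1.87 CPM in Tac111, 13.5 ± 1.98 CPM in Tac146 and 13.8 ± 0.251 CPM in B6 and was called in no comparison. Whether the reads given to Gm7658 came from the pseudogene or from Eif3m cannot be told apart in these counts.

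**Figure D3:**
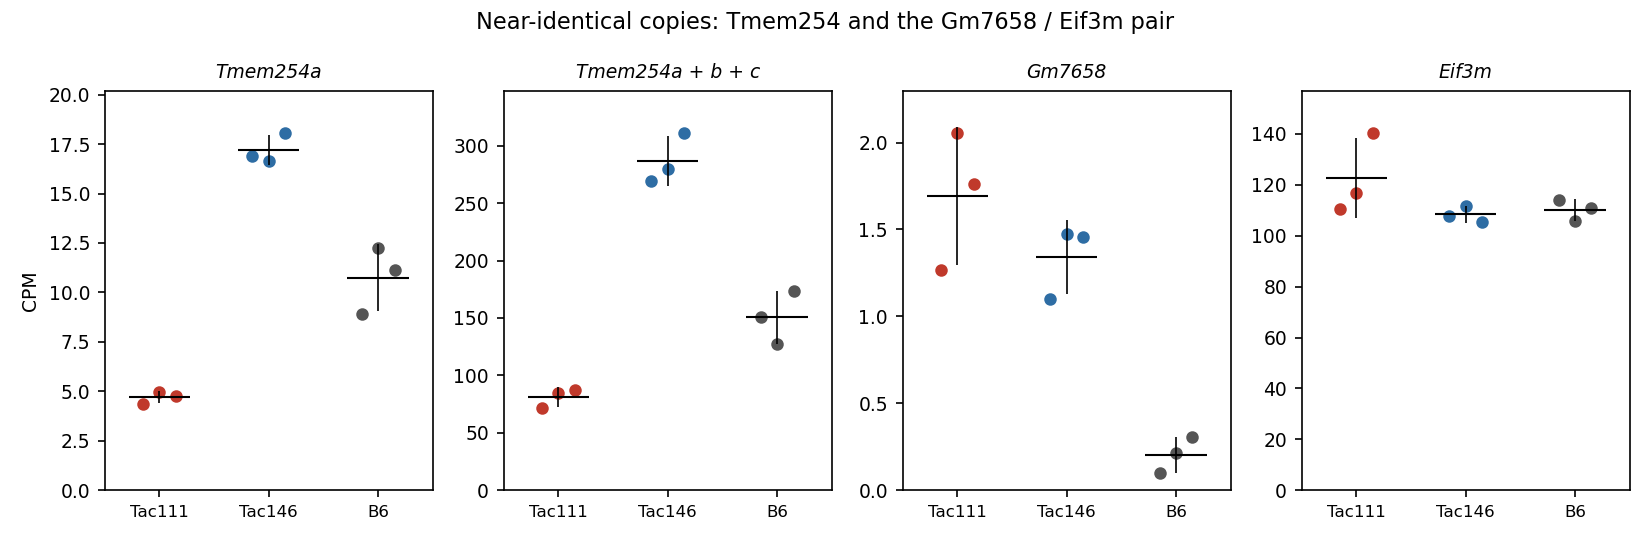
CPM of Tmem254a, of the sum of the 3 Tmem254 copies, of Gm7658 and of its source gene Eif3m in each library, with the mean and SD (n = 3, axes from 0). The sum of the copies averaged 81.2 CPM in Tac111, 287 in Tac146 and 151 in B6, whereas Eif3m overlapped between all strains.

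The differences of the 10 genes between strains can be read side by side. Within the group that was low in Tac146, the profiles of Nnt and Wdfy1 over the 9 libraries, each centred on its mean, were 0.24 log2 units apart as a root mean square. Wdfy1 and Atp5e were 0.42 apart, and Nnt and Atp5e 0.54. Crispld2 was 0.25 from Tmem254c and 0.29 from Tmem254b, and Mgst2 was 0.42 from Gm7658. Raver2 and Akr1c14 were 0.48 apart. Between these last patterns the distances were hardly wider, with Mgst2 0.51 from Akr1c14 and 0.68 from Raver2. Gm7658 was 0.63 from Akr1c14 and 0.64 from Raver2. All other distances between patterns ran from 0.78 to 2.28.

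**Figure D4:**
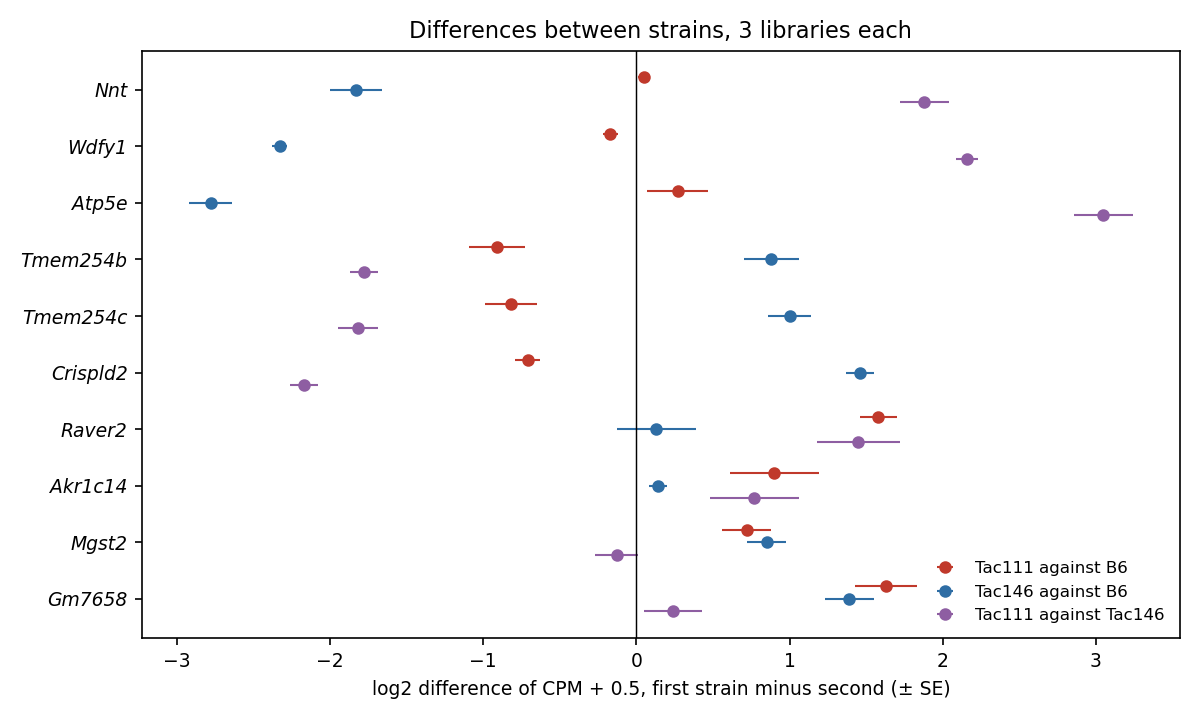
Mean difference of log2(CPM + 0.5) between strains for each gene, first strain minus second, with its SE (3 libraries per strain; no test was made). Nnt, Wdfy1 and Atp5e lie at -1.83, -2.33 and -2.78 for Tac146 against B6, while Tmem254b, Tmem254c and Crispld2 lie at 0.88, 1.00 and 1.46.

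Genes beside the 10 were examined because they share the chromosomal segment and were not themselves used in the choice. Not all are independent of it. Tmem254a, which shares reads with Tmem254b and Tmem254c, is among them and was called in both comparisons with Tac111. Gm20388, which covers Crispld2, is also among them and was called in no comparison. Of 164 protein-coding genes that start within 1 Mb of them, 109 were tested. In Tac146 against B6, none was called by edgeR (background 0.303% of tested genes), with 12 at p under 0.05 unadjusted. DESeq2 called 3 of the 109 there, beside 0.823% of all tested genes by DESeq2. In Tac111 against B6, 2 rose and 6 fell, 7.34% of the neighbours beside 3.81% of all tested genes (1.02% that rose and 2.8% that fell). In Tac111 against Tac146, 7 rose and 12 fell, 17.4% beside 8.89% (2.62% that rose and 6.27% that fell). Within 5 Mb, 404 neighbours were tested and the shares called were 4.21% in Tac111 against B6 and 10.4% in Tac111 against Tac146, close to those of all tested genes. The 1 Mb around Tmem254b, which holds repeated genes with shared reads, supplied 3 of the 8 calls of Tac111 against B6 and 7 of the 19 of Tac111 against Tac146. The median log2 fold change of all neighbours was -0.01, 0.02 and -0.05 in Tac111 against B6, Tac146 against B6 and Tac111 against Tac146.

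Next to Wdfy1, the tested genes on either side were Ap1s3, a clathrin adaptor subunit, and Mrpl44, a mitochondrial ribosomal protein that overlaps Wdfy1 by 126 bases on the other strand. Ap1s3 averaged 22.6 ± 0.857 CPM in Tac111, 29.4 ± 6.15 CPM in Tac146 and 25.7 ± 6.83 CPM in B6. Mrpl44 averaged 28 ± 4.79 CPM in Tac111, 24.9 ± 1.39 CPM in Tac146 and 25.4 ± 1.01 CPM in B6. Neither was called in a comparison. Dock10, a guanine exchange factor of leukocytes farther out, fell by 0.81 on the log2 scale in Tac111 against B6 (edgeR adjusted p = 0.0311) and by 0.74 in Tac111 against Tac146 (edgeR adjusted p = 0.0326). With 1 library left out at a time, its calls were lost without Tac111 replicate 2 or 3, without B6 replicate 1 or 2 for B6, and without any 1 Tac146 library for Tac146.

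Next to Nnt, Paip1, a partner of the poly(A)-binding protein, averaged 49.5 ± 6.82 CPM in Tac111, 40.5 ± 1.91 CPM in Tac146 and 41.7 ± 1.45 CPM in B6. On the other side, Fgf10, a growth factor of mesenchyme, averaged 2.69 ± 0.285 CPM in Tac111, 2.64 ± 0.998 CPM in Tac146 and 3.42 ± 0.676 CPM in B6. Neither was called. Tmem267, a membrane protein gene 152.6 kb from Nnt between their lower coordinates, stood at 18.7, 11.2 and 20.8 CPM in Tac111, at 8.32, 5.16 and 5.09 CPM in Tac146 and at 4.99, 5.18 and 5.0 CPM in B6. It was high in all Tac111 libraries, whereas Nnt was low in those of Tac146. The log2 fold change was 1.74 for Tac111 against B6 (edgeR adjusted p = 0.00345) and 1.44 for Tac111 against Tac146 (edgeR adjusted p = 0.00732). Ccl28, a mucosal chemokine, rose in the same comparisons at 1.82 and 1.43 (edgeR adjusted p = 0.0264 and 0.0392) with means of 0.996 ± 0.114 CPM in Tac111, 0.362 ± 0.185 CPM in Tac146 and 0.281 ± 0.0934 CPM in B6. With 1 library left out at a time, it lost both calls without any 1 Tac111 or B6 library, and the call against Tac146 also without Tac146 replicate 3 or 4.

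Next to Atp5e, Prelid3b, a lipid transfer protein of mitochondria whose lower coordinate is 4.0 kb from that of Atp5e, stood at 64.4, 67.8 and 78.1 CPM in Tac111, at 47.5, 49.2 and 52.4 CPM in Tac146 and at 65.0, 61.9 and 64.6 CPM in B6. Like Atp5e it was lowest in Tac146, but by far less. Its log2 fold change was 0.50 for Tac111 against Tac146 (edgeR adjusted p = 0.00987) and -0.36 for Tac146 against B6 (edgeR adjusted p = 0.262). Ctsz, the lysosomal cathepsin on the other side, averaged 40.7 ± 1.41 CPM in Tac111, 39.0 ± 5.19 CPM in Tac146 and 39.8 ± 2.88 CPM in B6. Npepl1, an aminopeptidase, rose in Tac111 against Tac146 (log2 fold change 0.64, edgeR adjusted p = 0.00438). Gm4724, a predicted gene 961.2 kb away, stood at 1.24, 1.17 and 1.62 CPM in Tac111, at 4.60, 4.22 and 4.08 CPM in Tac146 and at 6.16, 5.99 and 4.02 CPM in B6. It was lower in Tac111 than in B6 (log2 fold change -1.99, edgeR adjusted p = 0.000705) and than in Tac146 (log2 fold change -1.67, edgeR adjusted p = 0.00133).

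Within the Tmem254 cluster, Plac9b, a small secreted protein gene next to Tmem254b, stood at 11.1, 10.1 and 12.8 CPM in Tac111, at 53.4, 52.1 and 30.7 CPM in Tac146 and at 27.4, 21.9 and 24.9 CPM in B6. The order of the strains was that of the Tmem254 copies. It fell in Tac111 against Tac146 (log2 fold change -2.0, edgeR adjusted p = 0.000298) and in Tac111 against B6 (log2 fold change -1.13, edgeR adjusted p = 0.0109), the call against B6 being lost without Tac111 replicate 2. In Tac146 against B6 the log2 fold change was 0.87 (edgeR adjusted p = 0.164). Without Tac146 replicate 4, the low library, Plac9b and Gm9780 were called there too. Gm9780, a predicted gene next to Tmem254c, averaged 2.62 ± 0.58 CPM in Tac111, 15.3 ± 6.96 CPM in Tac146 and 7.90 ± 1.53 CPM in B6 (log2 fold change -2.54 for Tac111 against Tac146, edgeR adjusted p = 0.00245). Duxbl2 and Duxbl3, copies of a double homeobox gene in the same cluster, were called in no comparison.

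Around the other genes, calls were few. Jak1, the cytokine receptor kinase that overlaps Raver2 by 4 bases on the other strand, averaged 93.5 ± 7.91 CPM in Tac111, 118 ± 6.56 CPM in Tac146 and 118 ± 3.71 CPM in B6. It fell by 0.34 on the log2 scale in Tac111 against Tac146 (edgeR adjusted p = 0.0392), the opposite direction to the Raver2 levels, and the call was lost in 10 of 15 alternatives. Near Crispld2, Irf8, a regulator of dendritic cells, was lower in Tac111 than in B6 (log2 fold change -1.12, edgeR adjusted p = 0.0125) and than in Tac146 (log2 fold change -0.98, edgeR adjusted p = 0.0194), and with 1 library left out at a time both calls were lost without Tac111 replicate 2 or 3 and that against B6 also without B6 replicate 2 or 3. Zdhhc7, a palmitoyltransferase next to Crispld2, averaged 40.1 ± 3.72 CPM in Tac111, 36.8 ± 0.259 CPM in Tac146 and 36.2 ± 1.11 CPM in B6. 6430548M08Rik, also near Crispld2, fell by 0.65 on the log2 scale in Tac111 against Tac146 (edgeR adjusted p = 0.0123). Ndufc1, a subunit of respiratory complex I near Mgst2, rose by 0.49 there (edgeR adjusted p = 0.049), a call lost in 9 of 15 alternatives. Setd7 and Maml3 beside Mgst2, Net1 beside Akr1c14 and Cachd1 beside Raver2 were called in no comparison. All 7 tested neighbours of Gm7658 within 1 Mb lay on the side of Kcnq5.

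**Figure D5:**
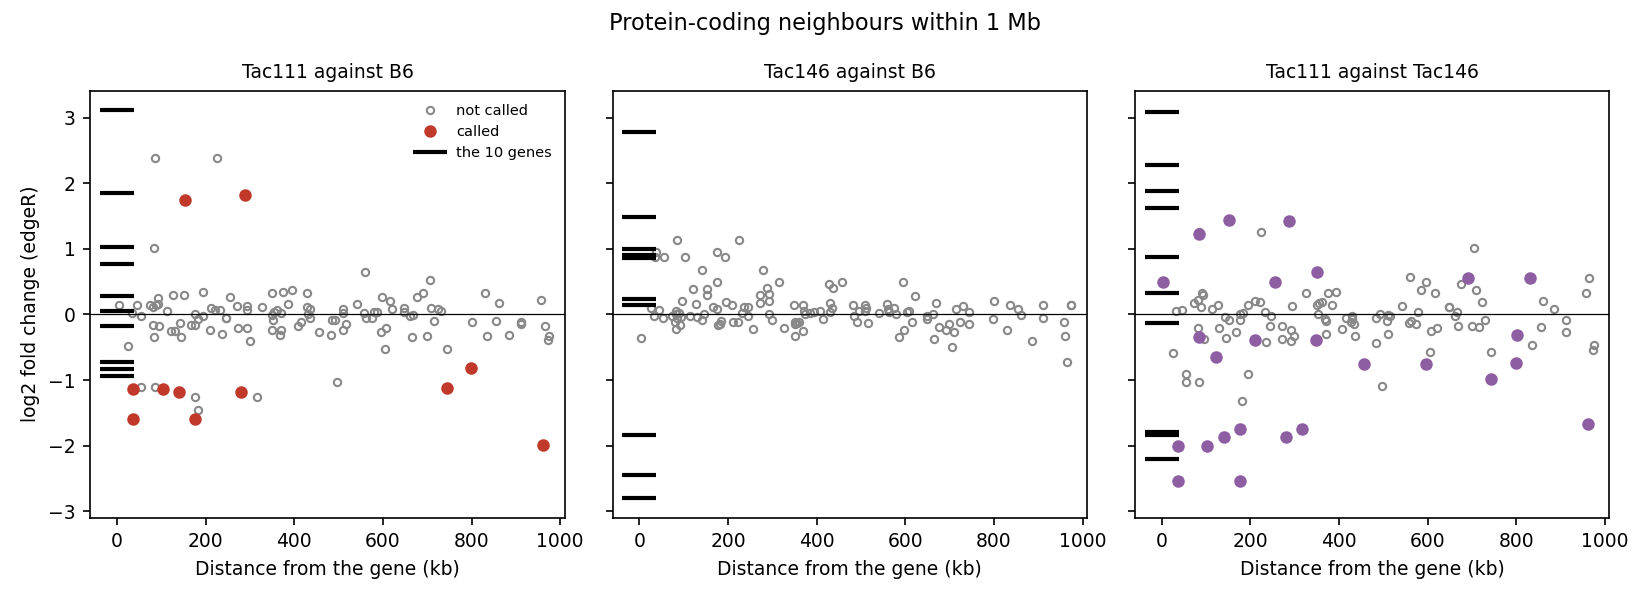
edgeR log2 fold change of the tested protein-coding neighbours against the distance between lower coordinates (kb), with called genes filled (adjusted p under 0.05) and the 10 genes as black bars at 0, for Tac111 against B6, Tac146 against B6 and Tac111 against Tac146. Neighbours shared by Tmem254b and Tmem254c appear at both distances; no neighbour was called in Tac146 against B6, where Nnt, Wdfy1 and Atp5e are the 3 lowest bars.

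Genes whose libraries were as far apart were counted over the whole table. A gap of 1 log2 unit or more between the 3 libraries of a strain and the nearest of the other 6 was present in 78 of 16523 tested genes (0.472%). Nnt, Wdfy1, Atp5e and Crispld2 were among the 78, with gaps of 1.54, 1.98, 2.47 and 1.21, and the other 6 of the 10 genes were not, the gap of Gm7658 being 0.99. Tac146 was lower in 5 genes (0.0303%). Beside Atp5e, Wdfy1 and Nnt these were Gm13490, a long noncoding RNA at 1.04 ± 0.168 CPM in Tac111, 0.131 ± 0.0611 CPM in Tac146 and 1.01 ± 0.138 CPM in B6, and 1600002K03Rik at 6.50 ± 1.02 CPM in Tac111, 1.60 ± 0.379 CPM in Tac146 and 5.26 ± 0.83 CPM in B6. Both were named after their values were seen. Of the 74 other genes with such a gap, 1 lay within 5 Mb of any of the 10, namely Gm4724 near Atp5e. Of all 16523 tested genes, 404 protein-coding neighbours lay that near, so no result is read from this count.

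The genes with the most similar profiles over the 9 libraries were sought among 13334 genes of 1 CPM or more. The search left out the described genes themselves, mitochondrially encoded genes, and names of the Gm-number kind or ending in Rik. 1600002K03Rik, which was also low in Tac146, was therefore not ranked. The genes named below are nearest only among those searched. For Nnt and for Wdfy1 the nearest of these was Osbpl6, an oxysterol-binding protein gene on chromosome 2, at 0.34 and 0.5 log2 units. Osbpl6 averaged 5.99 ± 0.69 CPM in Tac111, 2.42 ± 0.406 CPM in Tac146 and 6.34 ± 0.312 CPM in B6. Next came Pctp, a phosphatidylcholine transfer protein, for both (0.49 and 0.59), Spink7 for Nnt (0.52) and Awat1 for Wdfy1 (0.6). For Atp5e they were Pctp (0.75), Spink7 (0.79) and Aqp5 (0.81). Tmem254b, Tmem254c and Crispld2 shared Gsdmc, a gasdermin of epithelia, at 0.21, 0.2 and 0.34, with means of 109 ± 14.6 CPM in Tac111, 388 ± 113 CPM in Tac146 and 216 ± 52.0 CPM in B6. After it came H2-M5 (0.22) and H2-M2 (0.24) for Tmem254b, Tmem254a (0.23) and Rhof (0.26) for Tmem254c, and Tmem254a (0.36) and Nfkbiz (0.37) for Crispld2. Raver2 was nearest to Ano3 (0.29), Bhlha9 (0.31) and Rhbdd3 (0.33), and Akr1c14 to Upk3bl (0.23), 1700047I17Rik2 (0.23) and Itgb3bp (0.24). Mgst2 was nearest to Lockd (0.19), Npbwr1 (0.2) and Tcp11l1 (0.23), and Gm7658 to Ly6k (0.44), Ltf (0.45) and Firre (0.46).

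Other coding differences known between C57BL/6J and C57BL/6N lie in Cyfip2, Crb1 and Nlrp12. Cyfip2, a regulator of actin, averaged 18.8 ± 1.97 CPM in Tac111, 34.3 ± 5.27 CPM in Tac146 and 24.7 ± 2.99 CPM in B6. It fell in Tac111 against Tac146 (log2 fold change -0.87, edgeR adjusted p = 0.00453) and was not called in Tac146 against B6 (log2 fold change 0.47, edgeR adjusted p = 0.37). Crb1 and Nlrp12 were too low to be tested. These variants change the protein, so levels of RNA do not tell the alleles apart.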

How the data were processed

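The authors deposited expected counts (estimated read numbers, not always whole) for each gene symbol, made with STAR, RSEM and GRCm38, per the submitters' processing notes. For their versions, the annotation and the strandedness of counting, nothing was stated (not given in the sources used here). Reads of overlapping, antisense or near-identical genes may thus be divided between them. Each file held 55450 lines. The 107 symbols on several lines were summed, and 27 that looked like dates were kept apart. Members and lists were chosen with earlier results of these data known.

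CPM are expected counts over library sizes scaled by TMM factors. Differences use log2(CPM + 0.5). For tests, expected counts were rounded, and edgeR 4.0.16 (quasi-likelihood, R 4.3.3, its own expression filter, 6 residual degrees of freedom) took all 9 libraries together, 1 mean for each strain, with Benjamini-Hochberg adjustment over all tested genes and a threshold of 0.05. It was tested on simulated data. Alternatives included DESeq2 1.42.0, other scalings and filters, a replicate block and each library left out. Positions came from GENCODE M21, matched by symbol, and copies from BLAST 2.17.0 against its transcripts (95% identity or more over 200 bases). Named genes were all members, the nearest tested neighbour on each side, up to 3 called neighbours per member and up to 3 called genes per list and comparison, and the nearest profiles.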

Additional observations from a re-analysis of the deposited data

How the results depend on the processing

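Of 321 recomputed differences of the 10 genes, under other scalings (median-ratio, upper-quartile), pseudocounts (0.1 and 1 CPM), summed copies and left-out libraries, 303 moved by less than the spread between replicates. The sign turned in 4. In Tac146 against B6 it turned at -0.01 for Gm7658 summed with Eif3m, at -0.04 for Akr1c14 summed with its list and, where the strains overlapped, at -0.09 for Raver2 without Tac146 replicate 4. In Tac111 against B6, where the strains also overlapped, it turned at -0.2 for the first line of Nnt alone. Sums with Eif3m, Gm18857 and Gm20388 and the single Nnt line were chosen after seeing the data.

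Genes called were 630 in Tac111 against B6, 50 in Tac146 against B6 and 1469 in Tac111 against Tac146. DESeq2 gave 1213, 136 and 2677. These are 7.34%, 0.823% and 16.2% of all tested genes, the background for the DESeq2 counts of neighbours and list genes below. No filter on low counts gave 1020 and 129 in the comparisons with B6. Only the 6 libraries compared gave 26 in Tac146 against B6 and 641 in Tac111 against Tac146. Leaving out each library gave 295 to 958, 33 to 64 and 470 to 1829. Neighbours called were 8, 0 and 19. DESeq2 gave 3 in Tac146 against B6 and 31 in Tac111 against Tac146, no filter gave 2 in Tac146 against B6, the 6 libraries gave 12 in Tac111 against Tac146, and a window of 5 Mb gave 17 and 42 in the comparisons with Tac111, which are 4.21% and 10.4% of the 404 tested there, beside 7.34% and 17.4% within 1 Mb and 3.81% and 8.89% of all tested genes. Left-out libraries gave 3 to 9, 0 to 2 and 10 to 21. Of 68 list genes tested, 5, 0 and 13 were called. These are 7.35%, 0.0% and 19.1%, beside 3.81%, 0.303% and 8.89% of all tested genes. DESeq2 gave 9, 1 and 33, no filter gave 1 in Tac146 against B6 and 25 in Tac111 against Tac146, and the 6 libraries gave 8 in Tac111 against B6 and 7 in Tac111 against Tac146. Left-out libraries gave 2 to 8, 0 to 0 and 4 to 14. The 78 genes with a gap of 1 log2 unit were 234 at a gap of 0.5, 48 at a pseudocount of 1 CPM, and 81 to 94 with libraries left out. The cause was not tested. Of 42 pairs of a named gene and a comparison, 14 were called under every alternative, and none turned sign.

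With a replicate block, calls of all genes were 874, 44 and 632, of neighbours 8, 2 and 8, and of list genes 5, 0 and 6. Of the 42 pairs, 18 were lost with the block, all in Tac111 against Tac146. They were those of Tmem267 and 6430548M08Rik, lost under no other alternative, and of Wdfy3, Wdfy4, Irf3, Irf8, Akr1c18, Ccl28, Plac9a, Asb14, Atp5h, Atp5k, Jak1, Ndufc1, Pi16, Rab22a, Slmap and Txnrd2. Deviations from strain means correlated at -0.155 to 0.285 between libraries of the same number. Libraries of different numbers were not compared in this way, so whether equal numbers mark paired samples cannot be told. Depth limits Gm7658 most, with 4.07 to 9.15 counts per B6 library.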

Other observations

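Eif3m, from which Gm7658 derives, starts 3.36 Mb from Rag1 and 3.37 Mb from Rag2 on chromosome 2. Rag2, a recombinase subunit of lymphocytes, averaged 1.84 ± 0.299 CPM in Tac111 and had no count in Tac146 or B6. Rag1, its partner, averaged 0.0417 ± 0.0493 CPM in Tac111, 1.68 ± 0.123 CPM in Tac146 and 0.03 ± 0.0336 CPM in B6. Cd59a, a complement inhibitor gene at chr2:104095801-104115354 on the same side of Eif3m, was higher in B6 than in both other strains, with a gap of 1.65 log2 units. These genes were named after their values were seen.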
